A study of Mus musculus with 4 samples.

Results

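The imprinted growth genes described here are 10 genes, namely H19, Meg3, Cdkn1c, Plagl1, Peg3, Zdbf2, Ndn, Mest, Sgce and Nnat, taken by symbol from the 55387 gene rows of each library. All 10 were listed, each on 1 row and above 0 in every library, and 9 passed the limit for testing, which was a mean of more than 1 FPKM in either genotype. RNA was sequenced from brown adipose tissue (BAT) of 4 male mice aged 15 weeks on a C57BL/6 background, with 1 library per mouse. The 2 control mice carried the floxed Sox4 allele without Cre (Sox4f/f), a genotype that the labels give as WT. The 2 Sox4-MKO littermates carried the same floxed allele together with Myf5-Cre, a transgene that is active in the lineage giving rise to brown adipocytes and skeletal muscle and is therefore not restricted to BAT. The comparison asks which of these genes differed in BAT when Sox4, a transcription factor gene, was targeted in that lineage. FPKM counts fragments per length of transcript and corrects for how deeply each library was sequenced, so levels are per length and can be set side by side between genes.

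An imprinted gene is expressed mainly from the allele inherited from a single parent. In most cases DNA methylation laid down in the germ line differs between the maternal and paternal copies of a control region. Many imprinted genes act on fetal and early postnatal growth, and several are known to fall together in abundance as organs stop growing. Maternally expressed genes of the set are the noncoding RNAs H19 and Meg3 and the cell cycle inhibitor gene Cdkn1c, and the other 7 are known as paternally expressed. FPKM sum both alleles, so the parent of origin of the RNA was not measured.

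H19, Mest and Meg3 also carry microRNAs, and the mature sequences are given to show which short RNAs lie within these 3 members. They are printed 5′ to 3′ from RefSeq (GRCm38.p6), with the seed (bases 2 to 8) in capitals.
mmu-miR-675-5p: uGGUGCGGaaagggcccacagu
mmu-miR-675-3p: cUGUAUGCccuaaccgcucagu
mmu-miR-335-5p: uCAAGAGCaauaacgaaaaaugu
mmu-miR-335-3p: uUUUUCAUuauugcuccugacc
mmu-miR-770-5p: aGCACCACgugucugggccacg
mmu-miR-770-3p: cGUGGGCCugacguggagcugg
mmu-miR-1906: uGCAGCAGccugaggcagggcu
The miR-675 pair lies in H19 on the minus strand at chr7:142577112-142577133 (5p) and chr7:142577078-142577099 (3p), inside an exon of 3 of the 4 H19 transcripts that span it. The miR-335 pair lies in Mest on the plus strand at chr6:30741314-30741336 (5p) and chr6:30741354-30741375 (3p), in an intron of all 7 Mest transcripts that span it. In Meg3, on the plus strand, the miR-770 pair lies at chr12:109563710-109563731 (5p) and chr12:109563744-109563765 (3p), inside an exon of 1 of 4 spanning transcripts, and miR-1906 at chr12:109544588-109544609, inside an exon of all 5. The 7 seeds differ from each other. That of miR-1906 was found in 2 of 1738 mature mouse microRNAs and each of the others in 1. The rows Mir675, Mir335, Mir770 and Mir1906-1 were listed at 0 in every library, and the libraries were made from mRNA, so the mature microRNAs were not measured.

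The promoter window of Peg3 is shown because it holds the letters GGGGCCCC, which are known as a recognition sequence of the protein made by another member, Plagl1. The window is chr7:6730370-6730669 on the minus strand of GRCm38.p6 (RefSeq), from 250 bases before to 50 bases after the annotated start, with the match in capitals.
Peg3: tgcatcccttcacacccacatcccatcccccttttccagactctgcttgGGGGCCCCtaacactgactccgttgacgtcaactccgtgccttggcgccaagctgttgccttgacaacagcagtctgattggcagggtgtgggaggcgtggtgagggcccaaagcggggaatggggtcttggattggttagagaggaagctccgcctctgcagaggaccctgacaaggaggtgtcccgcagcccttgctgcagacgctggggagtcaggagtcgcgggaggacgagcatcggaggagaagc
These letters, which read the same on both strands, were found in 354 of 32851 mouse promoter windows of this length (1.08%). RefSeq windows were at hand for 7 members with 11 windows in all, and none of the other 10 windows held the letters. Also searched on both strands were CCATNTT, a core sequence of the factor YY1 (16.1% of all windows), and TATAAA, the TATA box (13.6% of all windows), and neither occurs in the Peg3 window. The first was found once in the Nnat window and the other in 1 of the Meg3 windows. A match is a description of the sequence, and binding was not measured here.

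Sox4 itself did not separate the labelled genotypes. Its level was 1.98 FPKM in Sox4f/f 1, 1.06 in Sox4f/f 2, 0.981 in the library labelled Sox4-MKO 1 and 3.06 in that labelled Sox4-MKO 2. The groups overlapped, and the log2 fold change was 0.20 (SE 0.43, limma adjusted p = 0.843). At the protein level, the paper reports much less SOX4 in BAT of younger Sox4-MKO mice. The row is a sum over the whole gene, the deleted part was not measured alone, and genotypes below are therefore those of the labels. Depth, estimated from the smallest values of genes with a single transcript, was 12100000 to 16200000 fragments per library. The library labelled Sox4-MKO 1 stood apart from the others in skeletal muscle genes, of which 13 summed to 18241 FPKM there and to 303, 1004 and 3411 FPKM in Sox4f/f 1, Sox4f/f 2 and Sox4-MKO 2. Every member is therefore given below also without single libraries where that changes a call or a direction.

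By level, the members spanned from about 50 FPKM to under 0.1 FPKM in the mean of the 4 libraries. H19 had the highest mean level at 49.6 FPKM, followed by Nnat (38.8), Meg3 (26.3), Ndn (17.6), Cdkn1c (16.7), Sgce (13.2), Peg3 (9.19), Mest (2.50), Plagl1 (1.67) and Zdbf2 (0.0593). Neighbours in this order overlapped in their ranges over the 4 libraries, except that Peg3 was above Mest and Plagl1 was above Zdbf2 in all 4 libraries with no overlap. The first place of H19 came from the libraries labelled Sox4-MKO alone. H19 ranked 1 of the 10 in both of those and 7 in both Sox4f/f libraries, where Nnat ranked 1. The places of Mest (8), Plagl1 (9) and Zdbf2 (10) were the same in all 4 libraries.

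**Figure D1:**
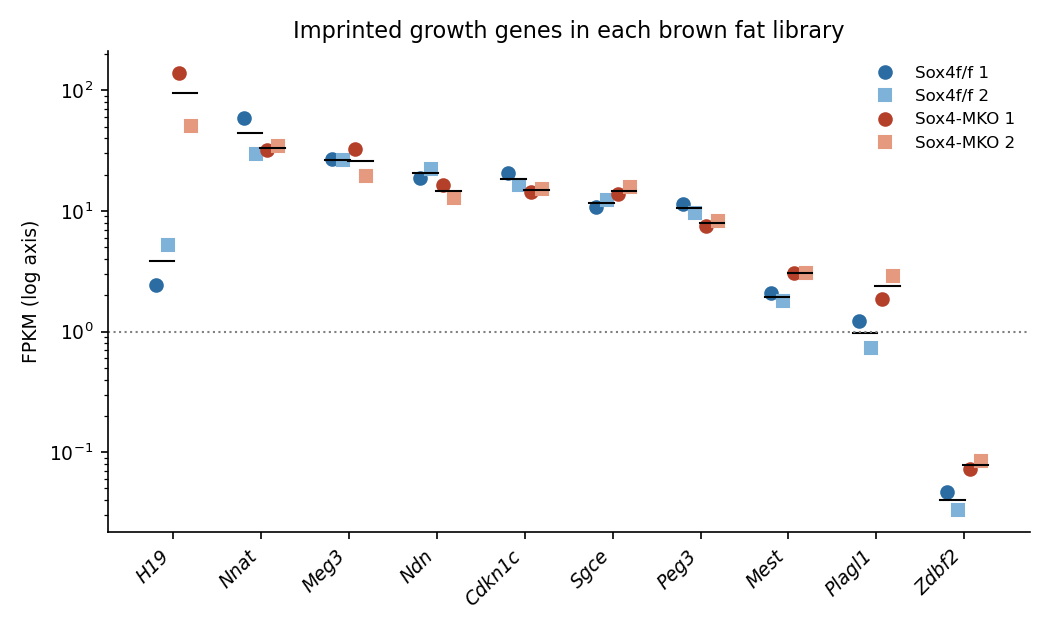
FPKM of each imprinted growth gene in the 4 libraries on a log axis, with 1 point per library (Sox4f/f blue, Sox4-MKO red) and a dotted line at 1 FPKM. H19 ran from 2.41 to 140 FPKM with the genotypes apart, while Meg3 and Nnat had overlapping genotypes and Zdbf2 lay under 0.1 FPKM in every library.

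Across the set, 2 of 9 tested genes, H19 and Plagl1, were higher under the Sox4-MKO label and none was lower, where a call is an unadjusted p under 0.05 in limma on log2(FPKM + 1). Of all 12877 genes tested, 16.2% passed that threshold, 7.95% as higher and 8.28% as lower. None of the 9 had an adjusted p under 0.05, as was the case for all genes (0%), and the smallest adjusted p of any gene was 0.191. The genotypes did not overlap for 7 of the 9 members, 4 higher and 3 lower, beside 51.3% of all tested genes. The median log2 fold change of the 9 members was -0.08 and that of all tested genes was -0.05. It was 0.17 without Sox4f/f 1, -0.25 without Sox4-MKO 1 and 0.23 without Sox4-MKO 2. The number of members called was 1 without Sox4f/f 1, 4 without Sox4-MKO 1 and 1 without Sox4-MKO 2. A permutation test over 2 against 2 mice cannot give a two-sided p below 0.333. By parental expression, the 3 maternally expressed members had a median of -0.08 and the 6 tested paternally expressed members a median of 0.01.

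H19, a long noncoding RNA that restrains fetal growth and whose abundance normally falls after birth except in skeletal muscle, was the member with the largest difference. It lies at chr7:142575529-142578143 on the minus strand (GRCm38, GENCODE M21). H19 had 2.41 FPKM in Sox4f/f 1 and 5.25 in Sox4f/f 2, against 140 FPKM in the library labelled Sox4-MKO 1 and 51.0 in that labelled Sox4-MKO 2. Estimated fragments were 74, 145, 4043 and 1892. Both Sox4-MKO libraries lay far above both Sox4f/f libraries, and the 2 Sox4-MKO libraries also differed from each other by 2.75 times. The Sox4f/f mean was 3.83 ± 2.01 FPKM and the Sox4-MKO mean 95.5 ± 62.9 FPKM (SD, n = 2 mice each), a ratio of 24.9. The log2 fold change was 4.21 (SE 0.57, limma adjusted p = 0.192), which ranked 15 from the highest among 12877 genes. H19 was called in each of 4 fits with a library left out, at 3.49 without Sox4-MKO 1 and 4.93 without Sox4-MKO 2, and in each of 10 other alternatives.

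Skeletal muscle fibre genes moved with H19. Of a list of 13 such genes, 11 were higher and none lower under the Sox4-MKO label. Their median log2 fold change was 3.81, and the genotypes did not overlap for 12 of 13. Of all tested genes, 7.95% were called as higher and 51.3% had genotypes that did not overlap. The number called was 3 without Sox4f/f 1 and 6 without Sox4-MKO 1. Their defining members were present in every library, with Ckm, the muscle creatine kinase, at 26.4 and 116 FPKM in Sox4f/f and 1755 and 274 FPKM in Sox4-MKO. All 13 were lowest in Sox4f/f 1 and highest in Sox4-MKO 1, and 12 of 13 put the 4 libraries in the order of H19. The exception was Myh4, a fast myosin heavy chain, with 56.5 FPKM in Sox4f/f 2 and 55.2 FPKM in Sox4-MKO 2.

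Set against the summed level of the 13 genes, H19 had 7.96 and 5.23 FPKM per 1000 FPKM of muscle fibre genes in the Sox4f/f libraries and 7.67 and 14.9 in Sox4-MKO. From the lowest to the highest library, H19 differed by 58.1 times, the muscle sum by 60.3 times and their ratio by 2.86 times. Within genotypes, H19 was 2.18 times and the muscle sum 3.32 times higher in Sox4f/f 2 than in Sox4f/f 1. The same quantities were 2.75 and 5.35 times higher in Sox4-MKO 1 than in Sox4-MKO 2. Between the nearest libraries of the genotypes, Sox4-MKO 2 and Sox4f/f 2, H19 was 9.70 times and the muscle sum 3.40 times higher in Sox4-MKO. The part of muscle RNA in the H19 result was not tested, and in whole tissue a change in the number of cells of a type cannot be told apart from a change in RNA per cell. Of 6 myogenic progenitor genes 3 were tested (Myf6, Myod1 and Myog), each of which passed the limit through the Sox4-MKO mean alone, so that the filter itself fixed their direction. Sums over the 6 genes were 0.135 and 0.990 FPKM in Sox4f/f and 19.1 and 10.3 FPKM in Sox4-MKO.

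**Figure D2:**
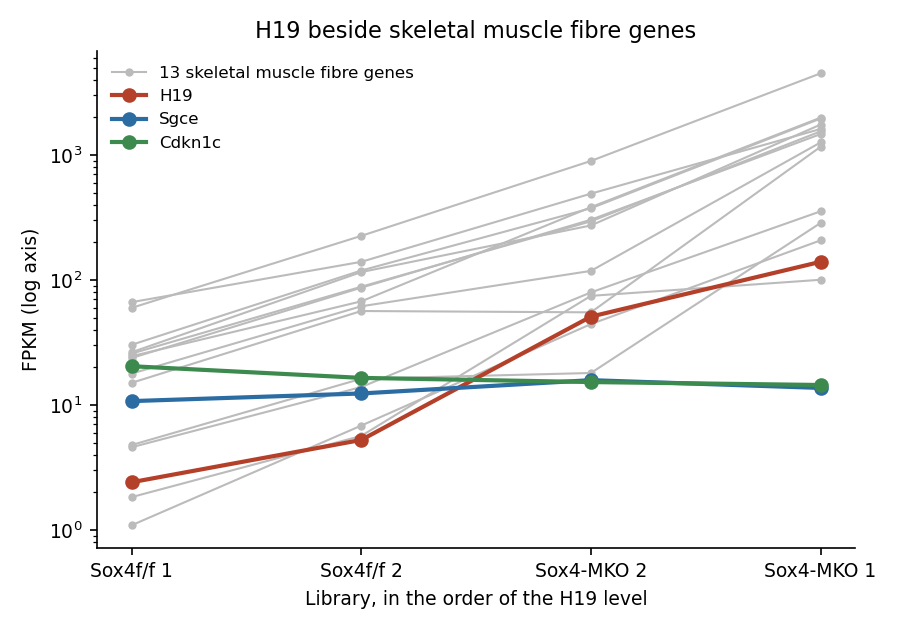
FPKM on a log axis of H19, Sgce and Cdkn1c (coloured) and of 13 skeletal muscle fibre genes (grey) in the 4 libraries. Libraries are ordered by the H19 level, and lines join the values of 1 gene. All 13 muscle genes were lowest in Sox4f/f 1 and highest in Sox4-MKO 1. Sgce was highest in Sox4-MKO 2 and Cdkn1c in Sox4f/f 1.

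The 5 tested genes whose profile over the 4 libraries lay nearest to that of H19, a list chosen after the values were seen, were Stac3, Smpx, Myoz2, Ankrd2 and Mybpc1. Likeness is the Euclidean distance between profiles of log2(FPKM + 1) centred on their means, and it is a description over 4 libraries. Stac3, a component of the excitation and contraction machinery of skeletal muscle, was nearest, with a distance of 0.081. Its levels were 0.518 and 1.87 FPKM in Sox4f/f and 62.4 and 21.1 FPKM in Sox4-MKO. The distances of the other 4 ran from 0.309 to 0.505.

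Meg3, the other long noncoding RNA, is transcribed from the maternal allele of the domain that holds Dlk1, at chr12:109541001-109571726 on the plus strand. It had 26.9 and 26.4 FPKM in Sox4f/f and 32.3 and 19.4 FPKM in Sox4-MKO. The Sox4f/f libraries were nearly equal and lay between the Sox4-MKO libraries. The means were 26.6 ± 0.322 and 25.9 ± 9.14 FPKM, and the log2 fold change of -0.08 (SE 0.26, limma adjusted p = 0.892) did not pass the test. It was -0.44 without Sox4-MKO 1, past the unadjusted threshold, and 0.27 without Sox4-MKO 2, so its direction rested on single libraries.

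Cdkn1c encodes p57, an inhibitor of cyclin-dependent kinases, and lies at chr7:143458339-143461050 on the minus strand. It had 20.4 and 16.5 FPKM in Sox4f/f and 14.5 and 15.3 FPKM in Sox4-MKO. Both Sox4-MKO libraries were below both Sox4f/f libraries, by a margin of little more than 1 FPKM. The means were 18.5 ± 2.79 and 14.9 ± 0.568 FPKM, and the log2 fold change was -0.29 (SE 0.16, limma adjusted p = 0.429). It stayed negative and short of the threshold in all 14 alternatives, between -0.43 and -0.14 with a library left out.

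Among the zinc finger genes, Plagl1, also called Zac1, a transcription factor that regulates other imprinted genes, was the member called as higher beside H19. It lies at chr10:13060504-13131694 on the plus strand. Plagl1 had 1.21 and 0.729 FPKM in Sox4f/f and 1.86 and 2.87 FPKM in Sox4-MKO, on the basis of about 86, 46, 124 and 245 fragments. The genotypes did not overlap, and the libraries of each differed by over 1.5 times. The means were 0.972 ± 0.343 and 2.36 ± 0.714 FPKM, a ratio of 2.43, and the log2 fold change was 0.76 (SE 0.28, limma adjusted p = 0.293). Plagl1 passed the limit of 1 FPKM through the Sox4-MKO mean alone, so it could enter the test only by being high there. The call was lost in 9 of 13 alternatives, among them the fits without Sox4f/f 1 (0.94), Sox4f/f 2 (0.59) and Sox4-MKO 2 (0.55).

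Peg3, a large zinc finger protein gene at chr7:6703892-6730431 on the minus strand and known for effects on growth and on body fat, pointed the other way. It had 11.4 and 9.64 FPKM in Sox4f/f and 7.54 and 8.20 FPKM in Sox4-MKO. Every Sox4-MKO value lay below every Sox4f/f value. The means were 10.5 ± 1.22 and 7.87 ± 0.467 FPKM, and the log2 fold change of -0.37 (SE 0.16, limma adjusted p = 0.336) did not pass the test. After correction for GC content and length it was -0.42 and passed the unadjusted threshold.

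Zdbf2, the third zinc finger gene, at chr1:63273265-63314576 on the plus strand, was listed far under the limit for testing. It had 0.0472 and 0.0331 FPKM in Sox4f/f and 0.0720 and 0.0851 FPKM in Sox4-MKO. These values correspond to an estimated 8, 5, 11 and 17 fragments, so the genotypes did not overlap but by a few fragments.

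Ndn encodes necdin, a MAGE family protein known to restrain cell division and adipocyte differentiation, in a gene without introns at chr7:62346569-62350262 on the plus strand. It had 18.7 and 22.4 FPKM in Sox4f/f and 16.4 and 12.8 FPKM in Sox4-MKO. The genotypes did not overlap, with Sox4-MKO lower. The means were 20.6 ± 2.61 and 14.6 ± 2.53 FPKM, and the log2 fold change of -0.47 (SE 0.18, limma adjusted p = 0.315) missed the unadjusted threshold narrowly. It was -0.63 and past the threshold without Sox4-MKO 1, -0.30 without Sox4-MKO 2, and past the threshold in 3 of 10 other alternatives.

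The other 3 members encode membrane proteins. Mest, also called Peg1, encodes a hydrolase-like protein of the endoplasmic reticulum that is known to rise in white fat when adipocytes enlarge, and lies at chr6:30723547-30748465 on the plus strand. It had 2.08 and 1.80 FPKM in Sox4f/f and 3.06 and 3.05 FPKM in Sox4-MKO, on the basis of about 75, 58, 103 and 132 fragments. The Sox4-MKO libraries were almost equal and both above Sox4f/f. The means were 1.94 ± 0.200 and 3.06 ± 0.00454 FPKM, a ratio of 1.57, and the log2 fold change of 0.46 (SE 0.19, limma adjusted p = 0.327) did not pass the test. It passed with rescaling of the libraries to leave out mitochondrially encoded genes and Ucp1 (0.52) and in limma without moderation.

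Sgce encodes epsilon-sarcoglycan, a subunit of sarcoglycan complexes outside striated muscle as well as in it, at chr6:4674350-4747207 on the minus strand. It had 10.7 and 12.4 FPKM in Sox4f/f and 13.7 and 15.8 FPKM in Sox4-MKO. Both Sox4-MKO libraries were above both Sox4f/f libraries. The means were 11.6 ± 1.15 and 14.7 ± 1.49 FPKM, and the log2 fold change was 0.33 (SE 0.15, limma adjusted p = 0.373), on the same side of the threshold in all 14 alternatives.

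Nnat encodes neuronatin, a small membrane protein of the endoplasmic reticulum known from neurons, adipose tissue and pancreatic islets. It lies at chr2:157560078-157562522 on the plus strand, inside Blcap on the other strand. It had 58.6 and 29.6 FPKM in Sox4f/f and 32.1 and 34.8 FPKM in Sox4-MKO. Sox4f/f 1 was the highest and Sox4f/f 2 the lowest of the 4, so the genotypes overlapped completely. The means were 44.1 ± 20.5 and 33.5 ± 1.88 FPKM, with a log2 fold change of -0.31 (SE 0.34, limma adjusted p = 0.668). It was 0.17 without Sox4f/f 1 and -0.79 without Sox4f/f 2, where it passed the unadjusted threshold. Markers of neurons were low, with sums over 8 genes of 6.61 and 8.18 FPKM in Sox4f/f and 6.51 and 5.78 FPKM in Sox4-MKO and with Dbh at 0 in every library. Most of each sum was Syp, a synaptic vesicle gene, which was lower (6.31 and 7.29 against 3.94 and 4.35 FPKM, log2 fold change -0.60). The only other one tested, Uchl1, was higher (0.187 and 0.432 against 1.51 and 0.990 FPKM, log2 fold change 0.78) and passed the limit through the Sox4-MKO mean alone. Both kept the call in 1 of 4 fits with a library left out, that without Sox4-MKO 2. Schwann cell markers summed to 124 and 99.1 FPKM in Sox4f/f and 191 and 117 FPKM in Sox4-MKO over 7 genes, of which none was called. The part of these cells in the Nnat values was not tested.

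**Figure D3:**
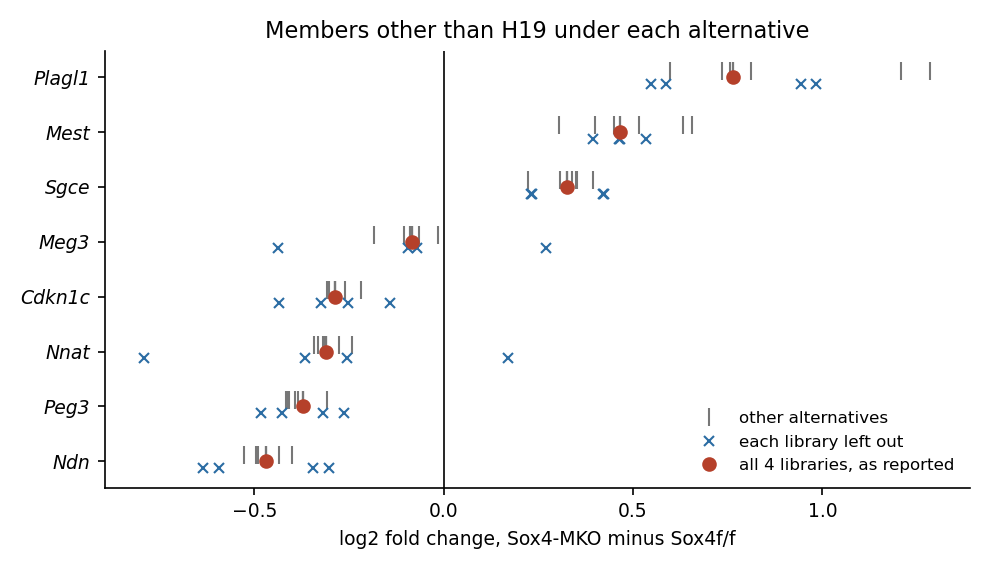
Log2 fold change (Sox4-MKO minus Sox4f/f) of the tested members other than H19, as reported (red points), with each library left out (blue crosses) and under the other alternatives (grey ticks). Meg3 and Nnat have crosses on both sides of 0, from -0.44 to 0.27 and from -0.79 to 0.17, and the 6 other members keep 1 side.

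The neighbours of the members in their imprinted domains were taken from a list of 63 other imprinted genes, of which 40 share a domain with a member. Of these 40, 21 were tested, and 4 were lower and 1 higher under the Sox4-MKO label, with a median log2 fold change of 0.03. These 5 of 21 stand beside 16.2% of all tested genes called, and 5 of the 21 passed the limit through the Sox4-MKO mean alone. Igf2, the paternally expressed growth factor gene that shares enhancers with H19, had 2.95 and 4.84 FPKM in Sox4f/f and 4.49 and 5.27 FPKM in Sox4-MKO. The genotypes overlapped, and its log2 fold change of 0.29 (SE 0.25) had a limma adjusted p of 0.593, where that of H19 was 4.21. The difference between the 2 genes was not tested. Dlk1, which encodes a membrane protein that inhibits adipocyte differentiation, had 2.20 and 2.94 FPKM in Sox4f/f and 1.99 and 1.73 FPKM in Sox4-MKO (log2 fold change -0.31). Rian, a noncoding RNA of the same domain as Meg3, had 8.34 and 6.47 FPKM in Sox4f/f and 10.03 and 9.05 FPKM in Sox4-MKO (log2 fold change 0.33), and neither gene passed the test.

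Blcap, which surrounds Nnat, was lower, with 92.3 and 96.1 FPKM in Sox4f/f and 67.4 and 56.7 FPKM in Sox4-MKO (log2 fold change -0.60, SE 0.13). It lost the call without Sox4f/f 2. The sources do not say whether strand was used in counting, and overlap of exons was not examined. Without strand, fragments from any exonic stretch shared by Nnat and Blcap could not be assigned to either gene. The same holds for Mest and Copg2, whose genes overlap on opposite strands. Copg2 had 13.6 and 13.1 FPKM in Sox4f/f and 14.1 and 12.0 FPKM in Sox4-MKO. In the domain of Cdkn1c, Cd81, a tetraspanin gene, was lower (305 and 297 against 218 and 239 FPKM, log2 fold change -0.40), and lost the call without either Sox4f/f library. In the domain of Sgce, Pon3, a paraoxonase gene, was lower (117 and 109 against 83.1 and 88.7 FPKM, log2 fold change -0.39), and kept the call in 1 of 4 fits with a library left out, that without Sox4-MKO 2. The other tested genes of that domain were not called and went both ways. Their log2 fold changes were 0.59 for Pon2, 0.67 for Tfpi2 and -0.34 for Ppp1r9a, and Tfpi2 passed the limit through the Sox4-MKO mean alone. Peg10, which shares a promoter region with Sgce, had 0.775 and 0.872 FPKM in Sox4f/f and 0.605 and 1.39 FPKM in Sox4-MKO and was not tested.

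In the domain of Ndn, Ube3a, a ubiquitin ligase gene, was lower (31.7 and 25.4 against 20.6 and 21.4 FPKM, log2 fold change -0.42). Atp10a was higher (0.591 and 1.31 against 2.28 and 2.52 FPKM, log2 fold change 0.83), and like Plagl1 it passed the limit through the Sox4-MKO mean alone. Both kept the call in 1 of 4 fits with a library left out, that without Sox4f/f 2. Snrpn had 11.5 and 11.8 FPKM in Sox4f/f and 16.2 and 9.48 FPKM in Sox4-MKO, with overlapping genotypes. The neighbours of Peg3 were low, with Zim1 at 2.26 and 0.954 FPKM in Sox4f/f and 1.28 and 1.20 FPKM in Sox4-MKO and Usp29 under 0.09 FPKM in every library.

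**Figure D4:**
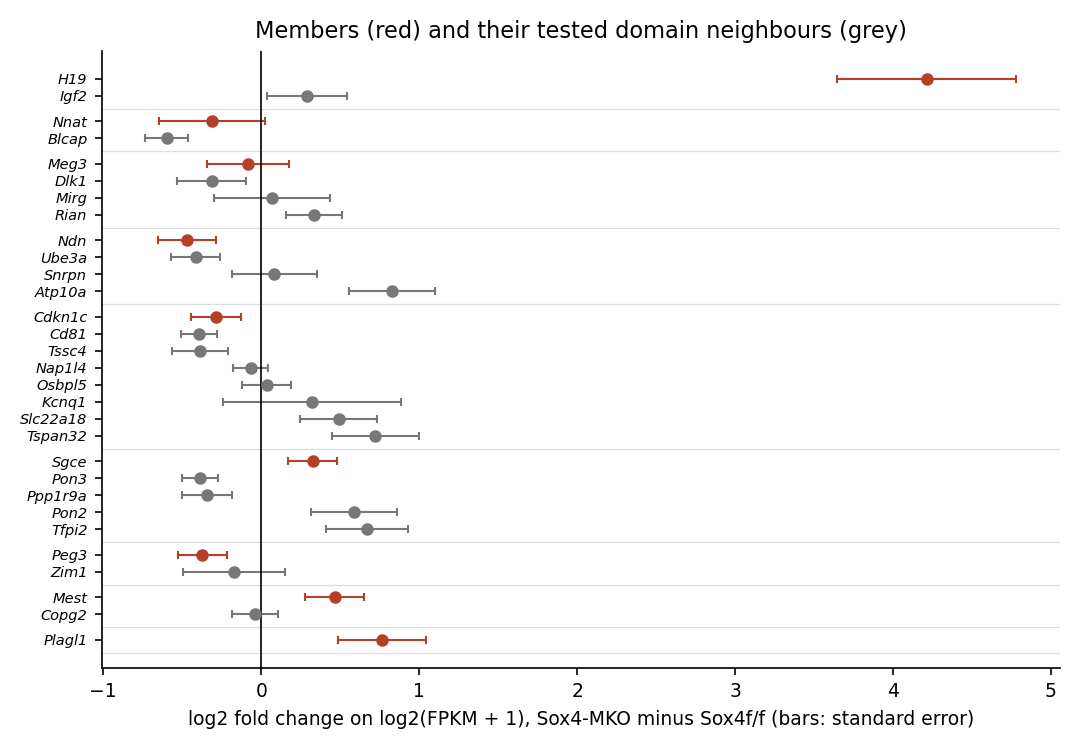
Log2 fold change on log2(FPKM + 1) (Sox4-MKO minus Sox4f/f) with its standard error for the members (red) and for the tested neighbours of their imprinted domains (grey), grouped by domain. H19 lies at 4.21, and the 21 neighbours lie between -0.60 (Blcap) and 0.83 (Atp10a).

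Over all 63 other imprinted genes, 38 were tested, and 6 were lower and 3 higher, which is 9 of 38 beside 16.2% of all genes. The number called was 4 without Sox4f/f 1 and 4 without Sox4f/f 2. Their median log2 fold change was -0.11, and none passed after adjustment (limma adjusted p from 0.202 for the lowest). All 9 called genes are known as maternally expressed in at least some tissue, out of 27 such genes tested. None of the 11 tested paternally expressed genes was called, a contrast that was not tested. Among members, the paternally expressed Plagl1 was called. The largest log2 fold change of the 38 was 1.59, that of Slc38a4, a paternally expressed gene without a call. It had 0.205 and 0.298 FPKM in Sox4f/f and 6.29 and 0.950 FPKM in Sox4-MKO, and passed the limit through the Sox4-MKO mean alone. Among called genes outside the domains of members, the largest positive difference was that of Dcn, the gene of the matrix proteoglycan decorin, at 118 and 155 FPKM in Sox4f/f and 267 and 239 FPKM in Sox4-MKO (log2 fold change 0.90, SE 0.17). Gnas, which encodes the stimulatory G protein subunit that couples receptors to cyclic AMP, was lower, at 1910 and 1516 FPKM in Sox4f/f and 803 and 981 FPKM in Sox4-MKO (log2 fold change -0.94, SE 0.19), and lost the call without Sox4f/f 1. Grb10, an adaptor that inhibits insulin and growth factor receptors, was higher, at 8.17 and 5.44 FPKM in Sox4f/f and 13.2 and 11.4 FPKM in Sox4-MKO (log2 fold change 0.79, SE 0.22), with the call kept in 1 of 4 fits with a library left out. Slc22a3, an organic cation transporter gene, was lower (25.4 and 24.6 against 19.5 and 18.2 FPKM, log2 fold change -0.39), and likewise kept the call in 1 of 4.

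Cell type markers differed between the same libraries. The counts below stand beside 7.95% of all tested genes called as higher and 8.28% as lower. Of 12 fibroblast and adipocyte progenitor genes, 10 were higher and none lower, with sums of 921 and 998 FPKM in Sox4f/f and 1415 and 1697 FPKM in Sox4-MKO. Among these 10, Dpp4 passed the limit through the Sox4-MKO mean alone (0.750 and 0.466 against 3.27 and 3.53 FPKM). Of 8 macrophage genes, 6 were higher, with sums of 194 and 285 FPKM in Sox4f/f and 407 and 395 FPKM in Sox4-MKO, and 3 were called without Sox4f/f 1 or without Sox4-MKO 1. Of 10 brown adipocyte genes, 8 were lower, with sums of 9276 and 9032 FPKM in Sox4f/f and 4785 and 5543 FPKM in Sox4-MKO, and 3 were called without Sox4f/f 1 or without Sox4f/f 2. Of 8 general adipocyte genes 1, Lipe, was lower, with overlapping sums between 12222 and 17801 FPKM. None was called without Sox4f/f 1, Sox4f/f 2 or Sox4-MKO 2, and 1 was lower and 2 were higher without Sox4-MKO 1. Ucp1, the defining gene of brown adipocytes, was present in all 4 libraries at 733 to 1935 FPKM. The part of these cell types in the values of the members and of the other imprinted genes was not tested.

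Genes related to the members by function were also counted. The counts of this and the next paragraph stand beside 16.2% of all tested genes called, 7.95% as higher and 8.28% as lower. A list of genes of imprint maintenance and DNA methylation held 15, among them Tet1, Tet2 and Tet3. Of these 15, 12 were tested and none was called at an unadjusted p under 0.05 (limma). Their median log2 fold change was -0.10. Zfp445, a zinc finger gene that protects imprints, had the highest mean level of that list over the 4 libraries, at 30.5 and 29.8 FPKM in Sox4f/f and 27.8 and 28.4 FPKM in Sox4-MKO. Of 12 sarcoglycan and dystrophin complex genes listed beside Sgce, 11 were tested, and 3 were higher and none lower, with a median of 0.41. The number was 1 without Sox4f/f 1 and 6 without Sox4-MKO 2. These 3 were Dtna, Sntb1 and Dmd. Dtna, which encodes dystrobrevin alpha, had 1.55 and 2.72 FPKM in Sox4f/f and 18.8 and 7.02 FPKM in Sox4-MKO, in the same order of libraries as the muscle fibre genes, and lost the call without Sox4f/f 1. Sgce at 0.33 was not called.

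Of 6 other cyclin-dependent kinase inhibitor genes beside Cdkn1c, 5 were tested and 1 was called, where 16.2% of all tested genes were. This was Cdkn2b, which encodes p15, at 0.709 and 1.09 FPKM in Sox4f/f and 1.98 and 2.26 FPKM in Sox4-MKO (log2 fold change 0.72). It passed the limit through the Sox4-MKO mean alone and lost the call without Sox4f/f 1 and without Sox4-MKO 2. Of 4 genes known to change with Mest in expanding fat, 1 was higher, and this was Lep, the leptin gene, at 11.8 and 21.5 FPKM in Sox4f/f and 47.4 and 38.3 FPKM in Sox4-MKO (log2 fold change 1.36), which lost the call without Sox4-MKO 1. None of the 2 PLAG family relatives of Plagl1 and none of 5 MAGE family relatives of Ndn was called, with medians of -0.31 and 0.07. The most abundant of them were Plagl2, at 2.21 and 3.09 FPKM in Sox4f/f and 2.40 and 2.38 FPKM in Sox4-MKO, and Maged1, at 47.8 and 44.1 FPKM in Sox4f/f and 46.8 and 49.4 FPKM in Sox4-MKO.

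The mean profile of the 9 tested members over the 4 libraries, centred on its mean, was -0.20 and -0.27 in Sox4f/f and 0.32 and 0.15 in Sox4-MKO on the log2(FPKM + 1) scale. It is carried mostly by H19, since the median member was near 0, so nearness to it need not mean nearness to any single member. The 5 tested genes nearest to that mean profile were Mbtps2, Grip2, Vtn, Zfp706 and Gstm2, at distances from 0.038 to 0.067. Grip2 passed the limit through the Sox4-MKO mean alone. In all, 64 genes lay within 2 times the fifth distance. The nearest, Mbtps2, which encodes a protease of the Golgi apparatus, had 4.05 and 3.71 FPKM in Sox4f/f and 6.002 and 5.24 FPKM in Sox4-MKO.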

How the data were processed

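BAT RNA from 4 male mice (2 Sox4f/f, 2 labelled Sox4-MKO) was analysed. The authors deposited 1 FPKM value per gene and library, and the submitters' processing notes name Cufflinks 2.1.1, Cuffdiff and mm10. The aligner and annotation are not given in the sources used here, and the paper and the labels differ on RNA extraction and library kit. The deposited tables hold no counts, so log2(FPKM + 1) was modelled on genotype alone in limma 3.58.1 (R 4.3.3, eBayes with a trend), over 12877 genes whose mean exceeded 1 FPKM in either genotype. Fold changes are on that scale and understate those of low genes. A call is a two-sided unadjusted p under 0.05, the limit of the study's methods, with the Benjamini-Hochberg adjusted p over all tested genes beside it. The fitting code was tested on simulated data. Mice are separate animals, with 2 per genotype.

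The value of 1 fragment was estimated in each library from genes with a single transcript of at least 1500 nt. In all libraries but Sox4f/f 2 this estimate settled on 2 values depending on where it started, and the median was used. Fragments of a gene were taken over its longest transcript. They are approximate and can be too high for genes with shorter transcripts. Coordinates are those of the same symbol in GENCODE M21. The members and lists were chosen with earlier results of these data known. Named are all members, all called imprinted genes and some others that share a domain with a member. Also named are at most 3 called genes of each related list (or its most abundant) and the 5 genes nearest to the members' mean profile. Slc38a4 was named in addition, for the size of its log2 fold change. Alternatives were pseudocounts of 0.1 and 0.01, no FPKM limit and a limit of 5, quantile normalization, a common median, a rescaling that leaves out Ucp1 and mitochondrially encoded genes, a replicate block, limma without moderation, a loess correction for GC content and length, and leaving out each library. One gene of a related list is not reported here and was left out of its counts. Figures were drawn with matplotlib 3.10.9.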

Additional observations from a re-analysis of the deposited data

How the results depend on the processing

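The genes called numbered 2090 of all tested, and 813 to 2258 with a library left out (813 without Sox4f/f 1). Of the members, 2 were called, and 1 with no FPKM limit, with quantile normalization and with a replicate block, 3 with rescaling without mitochondrially encoded genes and Ucp1 and with the GC content and length correction, and 1 to 4 with a library left out. Of the other imprinted genes 9 were called, and 4 to 9 with a library left out. The median of the members was -0.08, moved to -0.29 with a limit of 5 FPKM, at which Mest, Plagl1 and Zdbf2 were not tested, and ranged from -0.25 to 0.23 with a library left out. Meg3 turned to 0.27 without Sox4-MKO 2 (range -0.44 to 0.27) and Nnat to 0.17 without Sox4f/f 1 (range -0.79 to 0.17), for which the cause was not tested. In 14 of 14 alternatives H19 kept its direction and call, and Cdkn1c and Sgce kept their direction and were not called, and Plagl1 lost its call in 9 of 13. The replicate block (mice paired by number) gave 1908 called genes and 8 other imprinted genes called. The labels do not say that numbers pair the mice, and the deviations of same-numbered libraries correlated at -0.0122. With a library left out, the lone mouse of its genotype is assumed to vary like the other genotype. With 2 mice per genotype no gene had an adjusted p under 0.05 in the fits to all libraries.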
